A study of Mus musculus with 30 samples.

Results

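The Ifi200 cluster of mouse chromosome 1 was examined through 9 of its genes, Aim2, Ifi213, Ifi209, Ifi208, Ifi207, Ifi204, Mndal, Ifi203 and Ifi205, in bone marrow-derived dendritic cells that carry or lack Rubcn. The genes were taken by symbol from a table of 25611 gene rows, and all 9 were found. They were chosen because the counts of Ifi208 and Ifi213 were lower in the knockout than in the wild type in every condition, so the differences between genotypes are given as a description, with no test. The dendritic cells were grown from bone marrow with 200 ng/ml FLT3L (FLT3 ligand, the growth factor that drives dendritic cell formation) for 6 to 7 days. The genotypes were labelled Rubcn WT and Rubcn KO. Rubcn encodes Rubicon, which is required for the non-canonical autophagy known as LC3-associated phagocytosis, in which LC3 is attached to phagosomes. For each genotype, cells were left untreated, given OVA (as the labels abbreviate it) for 30 min or 4 h, or fed for the same times with apoptotic Jurkat cells, which derive from a human T cell leukaemia. There were 3 libraries in each of the 10 groups, 30 in all. The labels give no mouse strain, sex or age and do not say how the knockout was made, or whether the libraries of a group came from separate mice or cultures, so p-values measure the spread between these libraries, which may be technical.

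The genes of this cluster encode PYHIN proteins, also called the HIN-200 family. In these proteins a pyrin domain, which binds other pyrin domains, is commonly joined to a HIN domain, which binds DNA. AIM2 senses double-stranded DNA in the cytosol and assembles an inflammasome with the adaptor ASC and caspase-1, whereas p204, the product of Ifi204, is a mouse relative of human IFI16 and has been linked to interferon induction through STING. Many genes of the family are themselves induced by type I interferon, whose signal reaches its target genes through a motif known as the interferon-stimulated response element (ISRE). In mice the cluster has expanded by duplication, so its genes resemble each other in sequence.

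The 9 genes lie within 611.2 kb, at chr1:173420604-174031755 of GRCm38 (mm10). Their order from low to high coordinates is Aim2, Ifi213, Ifi209, Ifi208, Ifi207, Ifi204, Mndal, Ifi203 and Ifi205. Aim2, Ifi209 and Ifi208 lie on the plus strand, and the other 6 genes lie on the minus strand. RefSeq promoter windows of GRCm38.p6, from 250 bases before to 50 bases after a gene's start, were found for 8 of the 9 genes, all except Ifi204. They were searched on both strands for an ISRE core, the letters GAAA followed after any 2 bases by a second GAAA. At least 1 window of 6 genes held it: Ifi213, Ifi208, Ifi207, Mndal, Ifi203 and Ifi205. Ifi203 and Mndal had more than 1 window. The Ifi203 window at chr1:173942623-173942922 had no match. In the Mndal window at chr1:173879909-173880208 the match was on the opposite strand. Among all 27025 genes with such a 300-base window, 3.99% had a match. The stretches below show how alike the matches and their surroundings are. Each is 90 bases long, written 5′ to 3′ on the gene's own strand and ending before the start, with the 10-base match in capitals. For Ifi209 the capitals mark instead the place most like the match of the other genes.
Ifi208: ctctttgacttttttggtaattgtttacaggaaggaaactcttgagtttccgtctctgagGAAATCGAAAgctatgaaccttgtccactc
Ifi213: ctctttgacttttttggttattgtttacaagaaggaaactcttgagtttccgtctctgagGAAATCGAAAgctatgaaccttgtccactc
Ifi209: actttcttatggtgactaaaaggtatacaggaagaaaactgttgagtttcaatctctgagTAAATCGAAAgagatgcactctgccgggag
Mndal: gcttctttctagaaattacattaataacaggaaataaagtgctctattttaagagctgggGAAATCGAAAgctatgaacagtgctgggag
Ifi207: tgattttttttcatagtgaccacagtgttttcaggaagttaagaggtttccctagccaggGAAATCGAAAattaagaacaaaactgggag
Ifi205: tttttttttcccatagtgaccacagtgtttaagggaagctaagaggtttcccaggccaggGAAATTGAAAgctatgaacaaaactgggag

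The Ifi208 stretch lies at chr1:173673547-173673636, plus strand, and that of Ifi213 at chr1:173599316-173599405, minus strand. These neighbours shared 88 of 90 bases (97.8%), compared base by base without gaps. The Ifi209 stretch at chr1:173630720-173630809, plus strand, was identical to that of Ifi208 at 57 bases (63.3%). Its marked letters differ from GAAATCGAAA by G1T, counted from the 5′ end of those 10 letters. The Mndal stretch at chr1:173880194-173880283, minus strand, was identical at all 90 bases to the matching stretch of Ifi203 at chr1:173942498-173942587, minus strand. The stretches of Ifi207 (chr1:173741821-173741910, minus strand) and Ifi205 (chr1:174031860-174031949, minus strand) shared 76 bases (84.4%). The 10 letters GAAATCGAAA, chosen for a search after the sequences of these genes had been seen, stood in the windows of 16 of the 27025 genes (0.0592%), and 7 of those 16 lie in the cluster: Ifi203, Ifi206, Ifi207, Ifi208, Ifi213, Ifi214 and Mndal. The Aim2 window had no match to either set of letters. A match is a description of the sequence and does not show that a factor binds there.

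The duplicated sequence also bears on how reads can be assigned. In the transcripts of GENCODE M21, 20.9% of the 50-base stretches of Ifi208 occurred in a transcript of another gene, and 18.1% occurred in Ifi213. For Ifi213 the shares were 15.6% for any other gene and 13.6% for Ifi208. The highest share was that of Ifi209 (33.7%, nearly all with Ifi214), and the lowest was that of Aim2 (0.742%). Ifi204 (20%), Mndal (19.6%), Ifi205 (18.6%), Ifi203 (12.4%) and Ifi207 (7.29%) lay between. How the authors treated reads that fit several genes is not given in the sources used here, and the library kit, TruSeq RNA v2, does not mark the strand, so the split of reads among these genes is uncertain.

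Total counts ran from 9.73 to 51.6 M per library with a median of 44.9 M. The shallowest library was knockout OVA 30 min replicate 3, and the next held 38.7 M. The transcript of Rubcn was lower in the knockout in all 5 conditions without overlap of the libraries, at 73.6% of the wild type in untreated cells (72.8 against 98.9 CPM, the counts scaled to library size) and 84.7% at the closest, in Jurkat 30 min (86.2% without knockout Jurkat 30 min replicate 1), so the counts show a reduced and not an absent transcript. Dendritic cell markers were present in every library, with Flt3 at 228 CPM or more, Itgax at 316 or more and Zbtb46 at 71.2 or more. The summed CPM of several lists of other markers differed between the genotypes in untreated cells without overlap, and every marker of these lists was detected. The 10 plasmacytoid dendritic cell markers summed to 2441 to 2633 in the knockout and 2764 to 2845 in the wild type, the 7 basophil or mast cell markers to 56.6 to 87.5 and 22.2 to 28.6, the 6 B or plasma cell markers to 34.6 to 37.8 and 23.7 to 26.7, and the 7 stroma markers to 834 to 1055 and 646 to 746. The 7 markers of conventional type 2 dendritic cells summed to 1667 to 1798 in the knockout and 1584 to 1637 in the wild type, also without overlap. The 8 markers of conventional type 1 dendritic cells overlapped, at 4389 to 4510 in the knockout and 4325 to 4649 in the wild type. That sum rests in large part on Irf8, at a mean of 2105 CPM in the untreated knockout. Irf8 is also in the list of type I interferon signalling counted below. The part of these lists in the differences between genotypes was not tested, and in these bulk libraries fewer cells of a type and less RNA per cell cannot be told apart.

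One library stood apart in these genes, knockout Jurkat 30 min replicate 1. Its 9 members summed to 1235 CPM, against 871 and 892 CPM in the other libraries of its group. A list of 26 other interferon-stimulated genes summed to 2447 CPM in it, against 1448 and 1548 CPM. Ifi204 was at 49.2 CPM in this library and at 17.8 and 18.8 CPM in the others, and Ifi213 was at 2.62 CPM against 0.69 and 0.85 CPM. Values of the 9 genes that use the knockout Jurkat 30 min group are therefore also given without this library. It was as deep as its neighbours, at 43.8 M counts. Another library, knockout Jurkat 4 h replicate 2, stood apart over the whole table but little in these genes. The rows Rn45s, Lars2 and Mir6236, of which Rn45s is the ribosomal RNA precursor, took 4.43% of its counts, against 0.115% to 0.437% in the other 29 libraries. Its 9 members summed to 5421 CPM, against 5897 and 5938 CPM in the other libraries of its group. Without it, the log2 fold changes of knockout against wild type after Jurkat cells for 4 h ran from -1.57 for Ifi208 to -0.18 for Aim2, each nearer to 0 than with it.

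In untreated wild-type cells the genes covered a wide range of abundance, given here as CPM per kb of exon so that genes can be compared. Mndal was highest, at 143 ± 7.01 (SD, n = 3), followed by Ifi205 at 80.9 ± 2.29 and Ifi203 at 79.9 ± 8.38, whose libraries overlapped. Ifi207 (56.3 ± 2.51), Aim2 (35.9 ± 1.21), Ifi209 (26.4 ± 1.83) and Ifi204 (11.6 ± 1.32) came next, each without overlap with its neighbours in the order. Ifi213 (0.694 ± 0.107) and Ifi208 (0.679 ± 0.0574) were far lower and overlapped each other. After 4 h with Jurkat cells the order had changed: Ifi205 (699 ± 82.6) overlapped Mndal (618 ± 55.5) at the top, Ifi204 (429 ± 50.6) came next and overlapped Ifi207 (410 ± 38.3), Aim2 had moved below Ifi209, at 56.0 ± 3.50, and Ifi208 (26.9 ± 4.59) and Ifi213 (16.2 ± 2.60) were still the lowest. From here on, levels are CPM per library without division by length.

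The difference between genotypes was largest in Ifi208 and Ifi213, both of which encode small pyrin-domain proteins formerly named Pydc3 and Pydc4. In untreated wild-type cells, Ifi208 was at 1.83, 2.12 and 2.14 CPM, and in untreated knockout cells at 0.200, 0.228 and 0.546 CPM. These knockout values rest on 10, 11 and 26 counts. The groups did not overlap, and the knockout mean was 15.99% of the wild-type mean, a fitted log2 fold change of -2.64 with a standard error (SE) of 0.36. Without knockout untreated replicate 1, the highest of the 3, the log2 fold change was -3.23. Ifi213 was at 2.85, 3.69 and 3.83 CPM in the wild type and at 0.415, 0.501 and 0.882 CPM in the knockout, again without overlap (log2 fold change -2.53, SE 0.33).

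**Figure D1:**
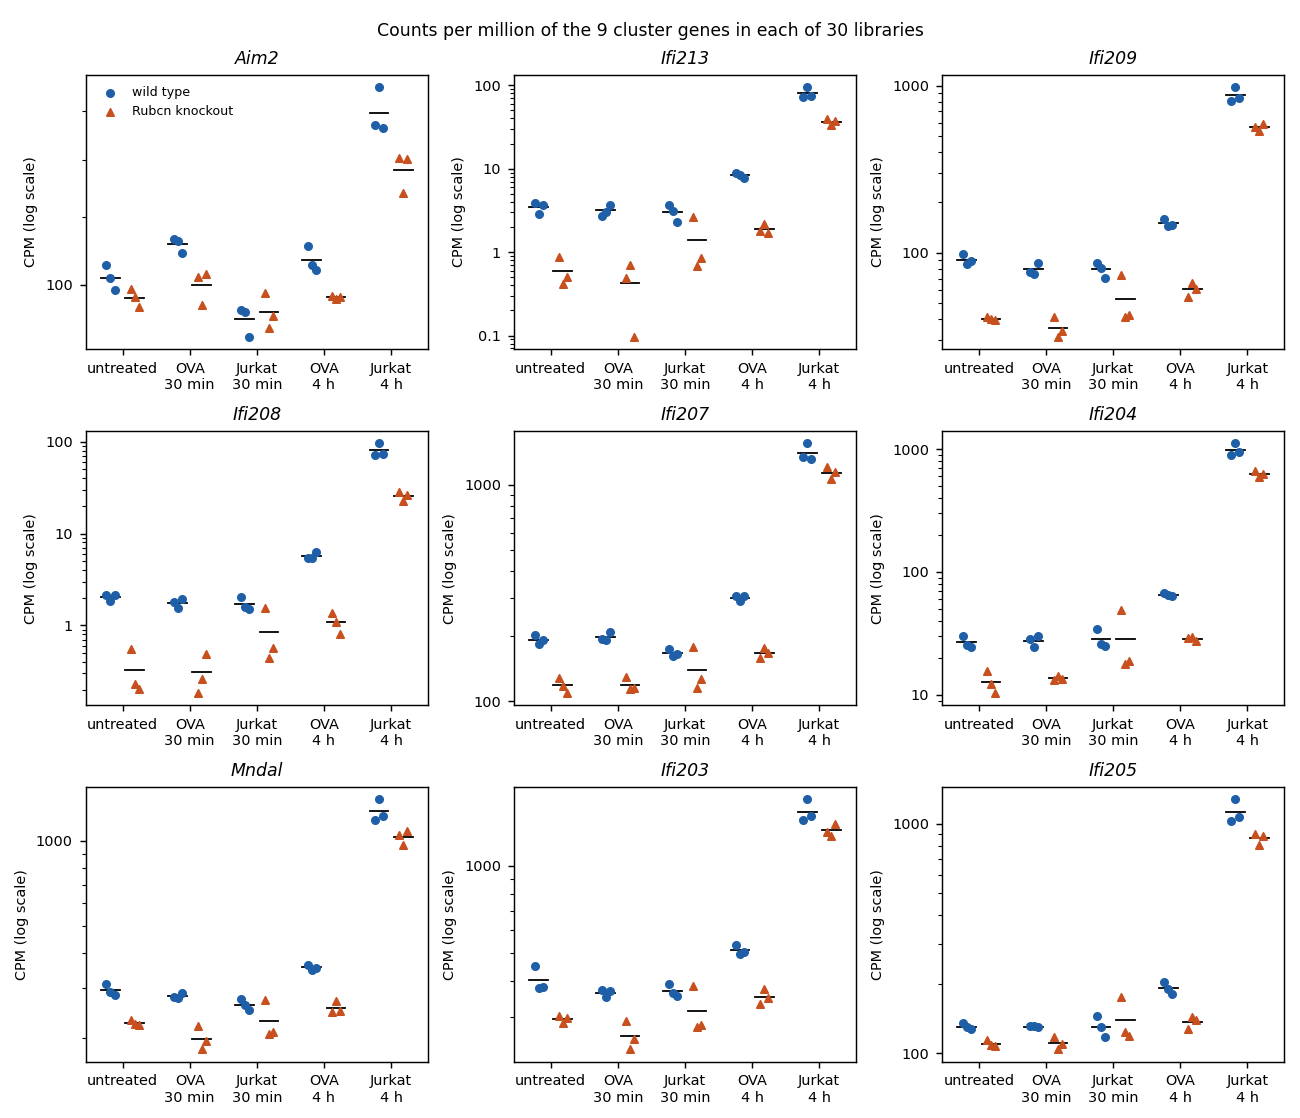
CPM of the 9 genes in each of the 30 libraries, on a log axis that differs between panels. Circles are wild-type libraries, triangles are knockout libraries and black lines are group means. In Ifi208 and Ifi213 the knockout libraries lie below the wild-type libraries in 4 of 5 conditions, and in Jurkat 30 min the highest knockout library, replicate 1, reaches the wild-type values.

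The same pair stayed low in the knockout under OVA. After OVA for 30 min, Ifi208 was at 1.53, 1.79 and 1.92 CPM in the wild type and at 0.183, 0.262 and 0.483 CPM in the knockout (log2 fold change -2.80, SE 0.43). Ifi213 was at 2.74, 3.06 and 3.68 CPM against 0.0965, 0.489 and 0.700 CPM (log2 fold change -2.54, SE 0.38), the lowest value being 1 count in the shallowest library. After OVA for 4 h both genes were higher in each genotype than in untreated cells, and the gap between genotypes was still wide. Ifi208 then stood at 5.40, 5.43 and 6.28 CPM in the wild type and 0.804, 1.08 and 1.36 CPM in the knockout (log2 fold change -2.37, SE 0.23). Ifi213 stood at 7.78, 8.38 and 8.94 CPM against 1.71, 1.78 and 2.19 CPM (log2 fold change -2.14, SE 0.24).

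With Jurkat cells the gap on the log2 scale was narrower. At 30 min Ifi208 was at 1.52, 1.58 and 2.01 CPM in the wild type and at 0.439, 0.564 and 1.56 CPM in the knockout, so that replicate 1 of the knockout overlapped the wild type. Its log2 fold change was -0.996 (SE 0.30), and -1.76 (SE 0.30) without that library. Ifi213 gave -1.11 (SE 0.29) and, without that library, -1.95 (SE 0.28), from 2.31, 3.07 and 3.63 CPM in the wild type and 0.690, 0.847 and 2.62 CPM in the knockout. At 4 h both genes were at their highest. Ifi208 was at 71.1, 74.0 and 96.2 CPM in the wild type and 22.9, 26.0 and 28.0 CPM in the knockout (log2 fold change -1.65, SE 0.13), and Ifi213 was at 71.5, 74.5 and 95.3 CPM against 33.3, 37.6 and 39.0 CPM (log2 fold change -1.13, SE 0.15). The groups did not overlap, and the knockout means were 31.9% and 45.5% of the wild-type means.

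Ifi209, formerly Pyhin1, and Ifi204, the IFI16-like sensor, were intermediate. Ifi209 was at 85.5, 89.4 and 97.8 CPM in untreated wild-type cells and at 39.7, 40.2 and 41.0 CPM in the knockout (log2 fold change -1.17, SE 0.14). Its log2 fold change was -1.15 after OVA for 30 min, -1.31 after OVA for 4 h and -0.64 after Jurkat cells for 4 h, with no overlap of libraries in any of these conditions. In Jurkat 30 min it was -0.59, and -0.92 without knockout replicate 1. Ifi204 was at 24.6, 25.4 and 30.2 CPM in the untreated wild type and at 10.4, 12.2 and 15.7 CPM in the knockout (log2 fold change -1.07, SE 0.23). The value was -1.01 after OVA for 30 min, -1.19 after OVA for 4 h and -0.65 after Jurkat cells for 4 h, also without overlap. Jurkat 30 min was the exception, with means of 28.4 CPM in the wild type and 28.6 CPM in the knockout and a log2 fold change of 0.01. That value rests on replicate 1 and became -0.64 (SE 0.13) without it.

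Ifi207, Ifi203, Mndal and Ifi205, which were more abundant, differed less. Ifi207 was at 184.5 to 201.6 CPM in the untreated wild type and at 109.3 to 128.0 CPM in the knockout (log2 fold change -0.70, SE 0.10), and its value across the other conditions ran from -0.85 after OVA for 4 h to -0.26 after Jurkat cells for 30 min, or -0.47 there without knockout replicate 1. Ifi203 was at 377 to 452 CPM against 285 to 302 CPM (log2 fold change -0.45, SE 0.09) and ran from -0.54 to -0.22, with -0.24 in Jurkat 30 min, or -0.41 without that library. Mndal was at 284 to 311 CPM against 223 to 230 CPM (log2 fold change -0.39, SE 0.08) and ran from -0.50 to -0.19 in Jurkat 30 min, which was -0.33 without that library. All 3 had negative values in all 5 conditions, with libraries that overlapped only in Jurkat 30 min, and did not overlap there once knockout replicate 1 was left out. Ifi205, known as a differentiation-linked gene of myeloid cells, was at 127 to 135 CPM against 108 to 114 CPM in untreated cells (log2 fold change -0.25, SE 0.10). Its value was lowest after OVA for 4 h, at -0.49, and was 0.10 in Jurkat 30 min, or -0.10 without replicate 1.

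Aim2 showed the smallest difference between genotypes of the 9 genes in untreated cells. It was at 98.6, 101.8 and 105.5 CPM in the wild type and 94.3, 96.7 and 98.8 CPM in the knockout, which overlapped (log2 fold change -0.08, SE 0.05). The log2 fold change was -0.16 after OVA for 30 min, -0.15 after OVA for 4 h and -0.22 after Jurkat cells for 4 h, each without overlap. In Jurkat 30 min it was 0.03, with overlapping libraries, and -0.01 without replicate 1.

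**Figure D2:**
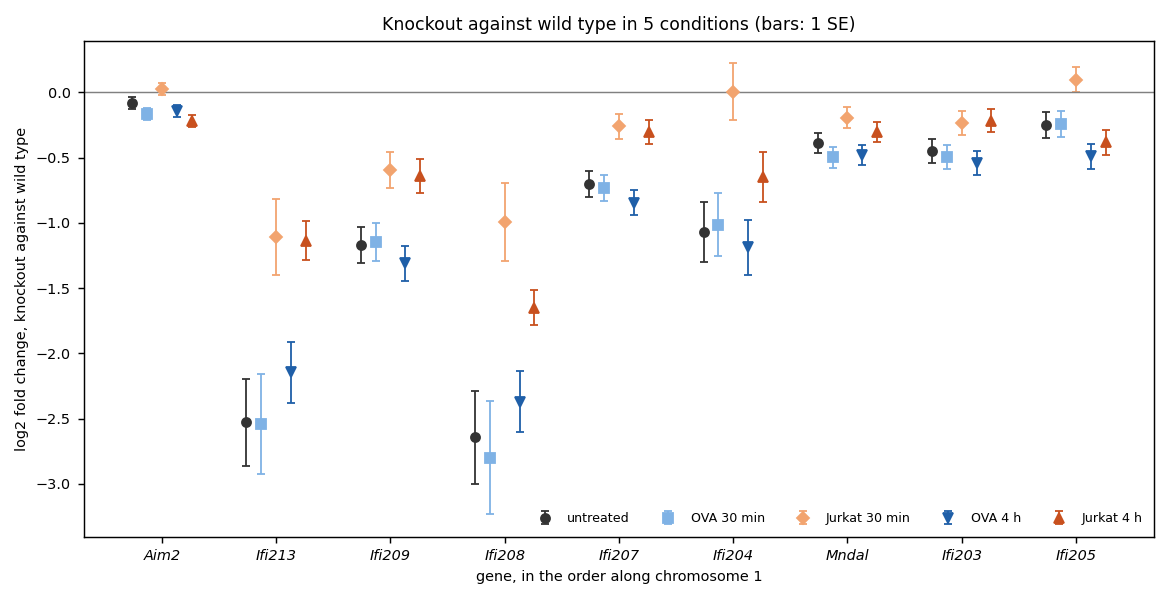
Fitted log2 fold change of knockout against wild type for the 9 genes, ordered along the chromosome at equal spacing, with bars of 1 SE and a marker for each of the 5 conditions. Ifi208 and Ifi213 lie lowest, at -2.64 and -2.53 in untreated cells, Aim2 lies nearest to 0 in untreated cells, at -0.08, and the Jurkat 30 min values lie above the untreated ones.

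Counted over the genes with no test, all 3 knockout libraries lay below all 3 wild-type libraries for 8 of the 9 genes in untreated cells (11.8% of all 14808 genes tested), for all 9 after OVA for 30 min (14.9%), for 0 after Jurkat cells for 30 min (12.3%), for all 9 after OVA for 4 h (16.8%) and for all 9 after Jurkat cells for 4 h (20.4%). The Jurkat 30 min count was 7 of 9 without knockout replicate 1 of that group, all except Ifi205 and Aim2, where 19.7% of all genes lay so. Without knockout Jurkat 4 h replicate 2 the Jurkat 4 h count was still 9 of 9 (23.5%). The fitted log2 fold change was negative in all 5 conditions for 6 of the 9 genes and for 14.3% of all genes. The exceptions were Ifi204, Ifi205 and Aim2, each positive in Jurkat 30 min alone, and without knockout Jurkat 30 min replicate 1 the count was 9 of 9 (15.8% of all genes). The median log2 fold change of the 9 genes was -0.70 in untreated cells, -0.73 after OVA for 30 min, -0.24 after Jurkat cells for 30 min, -0.85 after OVA for 4 h and -0.38 after Jurkat cells for 4 h, against medians of all genes between -0.01 and 0.00. The Jurkat 30 min median was -0.47 without knockout replicate 1 and -0.14 without knockout replicate 2. Because the genes were picked on this contrast, nothing is read from these counts and medians.

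The response to treatment within a genotype was not the contrast that chose the genes, and it was tested against untreated cells of the same genotype. For Ifi208 and Ifi213, however, it is built from levels that entered the choice. Their p-values are therefore not independent of the choice, and the counts over the 9 genes include both. The treatments of a genotype share those untreated libraries. A gene was called at a Benjamini-Hochberg adjusted p under 0.05 in edgeR's quasi-likelihood test over all 14808 genes tested. After OVA for 30 min none of the 9 genes was called in either genotype (10.7% of all genes were called in the wild type and 3.77% in the knockout). In each genotype 1 gene had an unadjusted p under 0.05. These were Aim2 in the wild type (log2 fold change 0.13, SE 0.05, edgeR adjusted p = 0.066) and Mndal in the knockout (-0.18, SE 0.08, edgeR adjusted p = 0.22). With DESeq2 the counts were 1 in the wild type, which was Aim2 (DESeq2 adjusted p = 0.0496), and 0 in the knockout.

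After OVA for 4 h, 8 of the 9 genes rose in the wild type, all except Aim2, where 11.9% of all genes rose. The rise was largest in Ifi208, from a mean of 2.03 ± 0.172 to 5.70 ± 0.50 CPM (SD, n = 3), a log2 fold change of 1.49 (SE 0.20, edgeR adjusted p = 2.4e-06). Ifi204 rose by 1.29 (SE 0.21) and Ifi213 by 1.27 (SE 0.21) on the log2 scale. Ifi209 (0.72), Ifi207 (0.64), Ifi205 (0.56), Ifi203 (0.34) and Mndal (0.27) rose less. Aim2 stood at 107.0 ± 3.71 CPM against 101.9 ± 3.44 CPM, with overlapping libraries. The adjusted p of Mndal was 0.011 with all libraries and 0.058 without wild-type untreated replicate 3, both by edgeR.

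In the knockout, 6 of the 9 genes rose after OVA for 4 h (5.94% of all genes). Ifi208 rose from 0.325 ± 0.192 to 1.08 ± 0.278 CPM (log2 fold change 1.77, SE 0.41) and Ifi213 from 0.599 ± 0.249 to 1.89 ± 0.259 CPM (1.65, SE 0.38). Ifi204 (1.17), Ifi209 (0.58), Ifi207 (0.50) and Ifi205 (0.31) made up the rest. The call of Ifi205 was lost when knockout OVA 4 h replicate 2 or 3, or any of the 3 knockout untreated libraries, was left out. Ifi203 (0.26, edgeR adjusted p = 0.071) and Mndal (0.18, edgeR adjusted p = 0.15) did not pass, although their libraries did not overlap those of untreated cells. Aim2 stood at 0.00 on the log2 scale.

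Jurkat cells for 4 h gave the largest responses, and all 9 genes rose in both genotypes. Of all genes tested, 38.9% rose in the wild type and 37.5% in the knockout. In the wild type Ifi208 rose from 2.03 to 80.4 ± 13.7 CPM, which was 39.5-fold (log2 fold change 5.30, SE 0.17, edgeR adjusted p = 1.4e-21). Ifi204 rose from 26.7 to 985 ± 116 CPM, 36.8-fold, and Ifi213 from 3.46 to 80.5 ± 12.95 CPM, 23.2-fold. The other genes rose by 3.27 (Ifi209), 3.11 (Ifi205), 2.86 (Ifi207), 2.11 (Mndal), 1.93 (Ifi203) and 0.64 (Aim2) on the log2 scale. The median over the 9 genes was 3.11 and over all genes tested -0.02.

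In the knockout the fitted value of Ifi213 was above that of Ifi204, by little more than the SE of either, and this order was not tested. Ifi208 rose from 0.325 to 25.6 ± 2.60 CPM (78.8-fold, log2 fold change 6.30, SE 0.24), Ifi213 from 0.599 to 36.6 ± 2.95 CPM (61.1-fold, 5.93, SE 0.25) and Ifi204 from 12.8 to 629 ± 32.8 CPM (49.4-fold, 5.63, SE 0.24). Ifi209 rose by 3.80, Ifi207 by 3.26, Ifi205 by 2.98, Mndal by 2.20, Ifi203 by 2.17 and Aim2 by 0.50 on the log2 scale. Without knockout Jurkat 4 h replicate 2 all 9 genes were still called higher, from 6.37 for Ifi208 to 0.54 for Aim2. For every gene the libraries of both genotypes lay above all untreated libraries of that genotype, as they did for 38.7% of all genes in the wild type and 37.7% in the knockout. Scaling to total counts in place of TMM moved the median of all genes to -0.42 in the wild type and -0.37 in the knockout in this comparison, and all 9 genes were called higher under it as well. Transcripts of Jurkat cells can add to these libraries: 15 T-lineage genes summed to 66.9 to 73.2 CPM in the untreated wild type and 151 to 188 CPM after 4 h, and to 69.0 to 76.2 and 128 to 147 CPM in the knockout. Their part in the response was not tested.

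**Figure D3:**
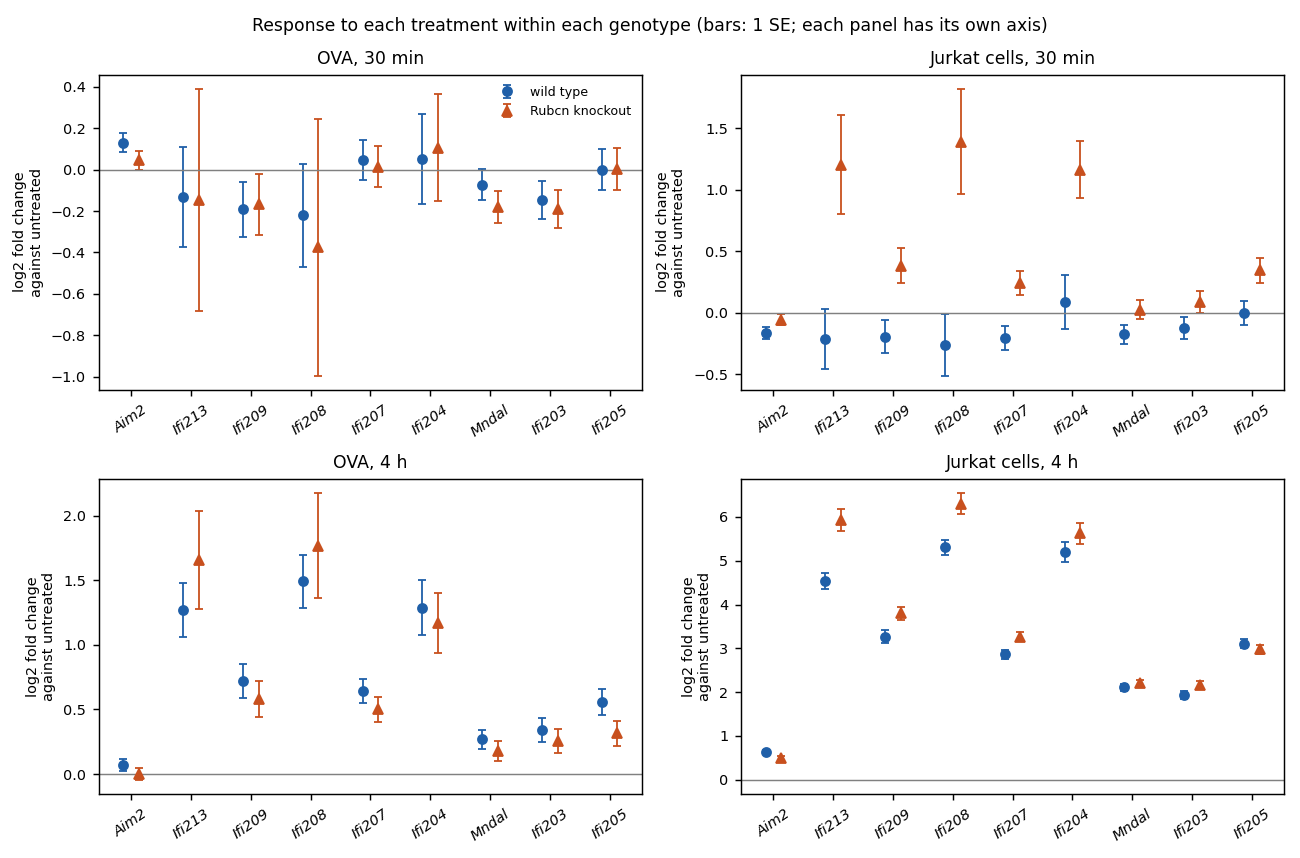
Fitted log2 fold change of each treatment against untreated cells, with bars of 1 SE, for wild-type cells (circles) and knockout cells (triangles). Each panel has its own vertical axis. After Jurkat cells for 4 h, Ifi208, Ifi213 and Ifi204 lie highest in both genotypes (5.30, 4.54 and 5.20 in the wild type) and Aim2 lies lowest, at 0.64 and 0.50.

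At 30 min with Jurkat cells the genotypes gave different calls. In the wild type, Aim2 fell by 0.16 on the log2 scale (SE 0.05, edgeR adjusted p = 0.0088), from 101.9 to 91.1 CPM, and none of the other genes passed (14.5% of all genes fell). In the knockout Ifi208, Ifi204, Ifi213 and Ifi205 rose, by 1.39, 1.16, 1.20 and 0.35 on the log2 scale (8.72% of all genes rose). Without knockout Jurkat 30 min replicate 1, only Ifi204 among the 9 genes passed, at 0.52 (SE 0.13, edgeR adjusted p = 0.011), where 5.7% of all genes rose. The values of Ifi208, Ifi213 and Ifi205 were then 0.63 (SE 0.43), 0.36 (SE 0.37) and 0.14 (SE 0.08). Leaving out knockout untreated replicate 2 or replicate 3 also left 1 gene called, and the share of all genes is not given for these fits. The 15 T-lineage genes summed to 108 to 112 CPM in the wild type and 87.5 to 96.4 CPM in the knockout at this time.

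Whether the responses differed between genotypes was tested by an interaction term for the 7 genes other than Ifi208 and Ifi213. None was called by edgeR or by DESeq2 in any of the 4 treatments, where 0%, 0.00675%, 0.0405% and 4.26% of all genes were called by edgeR for OVA 30 min, Jurkat 30 min, OVA 4 h and Jurkat 4 h. At Jurkat 4 h, 2 of the 7 genes were called, both with the larger rise in the knockout, when counts were scaled to their totals or when only the groups compared were fitted. Scaling to totals in place of TMM moved the median difference of all genes from -0.01 to 0.05. Of all genes called, it raised the share with the larger value in the knockout from 40.3% to 76.8%. The share of all genes called is not given for these 2 settings. With an unadjusted p under 0.05 in edgeR the counts were 0, 4, 0 and 3, and the 4 became 2 without knockout Jurkat 30 min replicate 1, as the 3 did without knockout Jurkat 4 h replicate 2. At Jurkat 4 h the differences, knockout minus wild type on the log2 scale, were 0.53 (SE 0.19) for Ifi209, 0.40 (SE 0.13) for Ifi207, 0.42 (SE 0.30) for Ifi204, 0.23 (SE 0.13) for Ifi203, 0.09 (SE 0.11) for Mndal, -0.13 (SE 0.14) for Ifi205 and -0.14 (SE 0.06) for Aim2. The lowest adjusted p was 0.088, for Ifi207 by edgeR, and 0.082 for the same gene without knockout Jurkat 4 h replicate 2. At OVA 4 h the differences ran from -0.24 (SE 0.14, Ifi205) to -0.07 (SE 0.06, Aim2). At Jurkat 30 min they ran from 0.11 for Aim2 to 1.08 for Ifi204, and without knockout replicate 1 from 0.04 for Ifi203 to 0.43 (SE 0.17) for Ifi204. Without knockout Jurkat 30 min replicate 2, 2 of the 7 genes were called at that time, and the share of all genes is not given for that fit. For Ifi208 and Ifi213, given without a test, the differences at Jurkat 4 h were 0.99 (SE 0.41) and 1.39 (SE 0.38), or 1.07 and 1.46 without knockout Jurkat 4 h replicate 2.

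The table held 3 more rows within the cluster, Ifi214, Ifi211 and Ifi202b, and all were tested. Ifi211 was at 41.4 ± 0.556 CPM in the untreated wild type and 26.5 ± 1.31 CPM in the knockout (log2 fold change -0.64, SE 0.11). It rose 3.55 (SE 0.11, edgeR adjusted p = 8.8e-22) on the log2 scale after Jurkat cells for 4 h in the wild type and 3.79 (SE 0.12) in the knockout. Ifi214 was barely detected, at 0.112 CPM or less in untreated cells, and reached 3.13 ± 0.875 CPM in the wild type and 1.08 ± 0.185 CPM in the knockout after Jurkat cells for 4 h. Ifi202b did not exceed a mean of 0.621 CPM in any group.

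Outside the cluster, 40 rows lay within 1 Mb on either side, of which 11 were tested on the side of Aim2 and 4 on the side of Ifi205. Knockout against wild type was tested for these rows by edgeR. In untreated cells 1 of the 11 was called lower in the knockout (3.97% of all genes tested) and 2 higher (6%). After OVA for 30 min 1 was lower (6.13%) and 2 higher (6.25%), and after Jurkat cells for 30 min none was lower (3.67%) and 1 higher (5.58%). After OVA for 4 h 5 were lower (6.35%) and 2 higher (6.22%), and after Jurkat cells for 4 h 1 was lower (13.5%) and 3 higher (9.37%). Among the 11, a gene called higher in every condition is also in the list of basophil or mast cell markers summed above. Of the 4 rows on the other side, none was called lower and 1 was called higher in each condition. The nearest tested gene on the Aim2 side was Cadm3, which encodes a cell adhesion molecule and was called lower in untreated cells, OVA 30 min and OVA 4 h. Its log2 fold changes for knockout against wild type were -0.39, -0.55, -0.10, -0.44 and -0.13 in untreated cells, OVA 30 min, Jurkat 30 min, OVA 4 h and Jurkat 4 h. On the other side Olfr433, an olfactory receptor gene at 2.73 to 7.61 CPM on group average, ran from -0.35 to -0.23 in those conditions and was called in none. The medians over the 11 genes were -0.07, 0.08, -0.03, -0.17 and 0.12 in the same order. Without knockout Jurkat 30 min replicate 1, Cadm3 was at -0.08 and the median over the 11 genes was 0.09. Leaving out that library, or knockout Jurkat 4 h replicate 2, changed none of these counts.

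Other genes of the pathways in which PYHIN proteins act were counted in 4 lists. The lists were chosen with earlier results of these data known, so the counts are descriptive. Of all genes tested, 3.97% were called lower in the untreated knockout, 6.13% after OVA for 30 min and 3.67% after Jurkat cells for 30 min. The shares were 6.35% after OVA for 4 h and 13.5% after Jurkat cells for 4 h. In the same order, 6%, 6.25%, 5.58%, 6.22% and 9.37% were called higher. Of 26 other interferon-stimulated genes, 24 were called lower in the untreated knockout, 21 after OVA for 30 min, 13 after Jurkat cells for 30 min (and 2 higher), 26 after OVA for 4 h and 17 after Jurkat cells for 4 h. Their median log2 fold changes were -1.15, -1.10, -0.18, -1.18 and -0.54, against medians of all genes between -0.01 and 0.00. Without knockout Jurkat 30 min replicate 1, 21 were called lower (3.16% of all genes) and none higher (4.43%) in Jurkat 30 min, with a median of -0.54. Without knockout Jurkat 4 h replicate 2, 12 were called lower in Jurkat 4 h, where 9% of all genes were, with a median of -0.50. In untreated cells Ifi44 was at 2.93 ± 0.225 CPM in the knockout and 25.7 ± 3.99 CPM in the wild type, and Ifi27l2a at 58.3 ± 6.62 and 169.5 ± 5.90 CPM. Of 11 genes of type I interferon signalling, 5 were called lower in the untreated knockout, 7 after OVA for 30 min, 3 after Jurkat cells for 30 min, 6 after OVA for 4 h and 5 after Jurkat cells for 4 h (3 without knockout replicate 2), and none was called higher in any condition. Among them Irf9, a DNA-binding factor of the interferon response, was at 122.0 ± 3.53 CPM against 155.9 ± 3.45 CPM.

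Of 14 genes of cytosolic DNA sensing through STING, 4 were called lower in the untreated knockout, with a median of -0.08. The counts were 5, 2, 5 and 7 after OVA for 30 min, Jurkat cells for 30 min, OVA for 4 h and Jurkat cells for 4 h. Of all genes tested, 3.97%, 6.13%, 3.67%, 6.35% and 13.5% were called lower in these conditions, untreated first. None of the 14 was called higher in any condition. The Jurkat 4 h count was 3 without knockout Jurkat 4 h replicate 2 (9% of all genes). The named ones were Irf7, an interferon regulatory factor, at 74.3 ± 1.90 against 157 ± 9.36 CPM, and Trex1, an exonuclease that removes cytosolic DNA, at 109.7 ± 3.27 against 146 ± 7.21 CPM. Of 12 inflammasome partners and products, 3 were called lower and none higher in the untreated knockout, with a median of -0.09. They included Casp1, the protease that AIM2 activates through ASC, at 43.8 ± 0.861 against 52.9 ± 2.49 CPM, and Zbp1, another nucleic acid sensor, at 7.26 ± 0.301 against 16.8 ± 1.17 CPM. After OVA 3 of these 12 were lower at 30 min and 6 at 4 h, with none higher. After Jurkat cells for 30 min 2 were lower and 2 higher (5.58% of all genes were higher). The higher ones were the cytokine genes Il1b, at 89.2 ± 30.7 against 47.5 ± 7.58 CPM (log2 fold change 0.91, edgeR adjusted p = 0.00014), and Il1a, at 4.13 ± 1.99 against 2.06 ± 0.561 CPM (1.01, edgeR adjusted p = 0.010). These values were 0.61 (edgeR adjusted p = 0.00086) and 0.56 (edgeR adjusted p = 0.14) without knockout Jurkat 30 min replicate 1. Without that library 3 genes were lower (3.16% of all genes) and 1 higher (4.43%). After Jurkat cells for 4 h 6 were lower and 1 higher (9.37% of all genes were higher). Without knockout replicate 2, 6 were lower (9% of all genes) and none higher (6.56%). After Jurkat cells for 4 h all 26 other interferon-stimulated genes rose in both genotypes, with medians of 3.83 in the wild type and 4.34 in the knockout. Of the 12 inflammasome genes 11 rose and 1 fell in each. Of all genes tested, 38.9% rose in the wild type and 37.5% in the knockout. Casp4, the caspase that senses lipopolysaccharide, rose from 9.39 ± 0.295 to 243 ± 20.6 CPM in the wild type. After OVA for 4 h 25 of the 26 rose in the wild type (11.9% of all genes) and 24 in the knockout (5.94%).

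The genes whose log2 CPM followed each member most closely were sought among 10221 genes that are not members and have a mean of at least 5 CPM. These correlations are descriptive, since the libraries share conditions and the 4 h Jurkat libraries set most of the range. Over the 30 libraries Ifi208 was most like Oas1g (Pearson r = 0.987), Oas3 (0.986) and Oas1a (0.986), which encode oligoadenylate synthetases, sensors of double-stranded RNA. Ifi213 was most like Oas1g (0.983), Gbp6 (0.981) and Rtp4 (0.976). Leaving out knockout Jurkat 30 min replicate 1 or knockout Jurkat 4 h replicate 2 kept these 6 coefficients between 0.975 and 0.988. Over the 24 libraries without 4 h Jurkat, the list was Oas3 (0.970), Sgcb (0.965) and Oas1a (0.964) for Ifi208, and A530064D06Rik (0.974), Gbp6 (0.959) and Ddx60 (0.950) for Ifi213. For the other members over these 24 libraries the closest were Trim30a for Ifi203 (0.986), Iigp1 for Ifi204 (0.986), Nt5c3 for Ifi205 (0.969), Trim30d for Ifi207 (0.986) and for Mndal (0.987), Dck for Ifi209 (0.986) and Spag9 for Aim2 (0.907). Without knockout Jurkat 30 min replicate 1, over 23 libraries, the coefficients of these named pairs lay between 0.913 (Aim2 and Spag9) and 0.991 (Ifi203 and Trim30a).

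Within the cluster, and over the same 24 libraries, the most alike pair was Ifi203 and Mndal (r = 0.987), which have the same printed promoter stretch. Ifi209 followed both nearly as closely (r = 0.978 with Mndal and 0.977 with Ifi203), with a stretch identical to theirs at only 56 of 90 bases (62.2%). The other pairs with alike stretches were not each other's closest over these 24 libraries. Ifi208 and Ifi213 had r = 0.914, below Ifi208 with Ifi209 (0.953), Ifi207 (0.946) or Ifi204 (0.931) and below Ifi213 with Ifi209 (0.944). Ifi207 and Ifi205 had r = 0.871, below Ifi207 with Ifi209 (0.971). Ifi208 and Ifi213 had few counts in the knockout libraries of this set, and the effect of that on r was not tested. Over all 30 libraries Ifi208 and Ifi213 had r = 0.974, against 0.983 for Ifi208 with Ifi209 and 0.971 for Ifi213 with Ifi209. Over the 24 libraries Aim2 stood apart from the rest, with r between 0.37 (Ifi213) and 0.58 (Ifi207). For the same genes r was 0.38 and 0.59 without knockout Jurkat 30 min replicate 1.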

How the data were processed

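RNA was sequenced from 30 libraries, 3 in each of 10 groups. The values deposited by the authors are raw read counts per gene, 1 table for the series. The submitters' processing notes name STAR 2.5, Subread featureCounts 1.5.0-p1, DESeq2 and the build mm10. For the annotation, the use of strand and reads that fit several genes, the method is not given in the sources used here. No count column belonged to a sample outside the series. Libraries of a group differed by more than counting noise, with a chi-square per gene of 2.28 to 16.7, and of 129 and 134 for the pairs with knockout Jurkat 4 h replicate 2.

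Counts were scaled by TMM and fitted with edgeR 4.0.16 (R 4.3.3) as 1 model of the 10 group means. Genes passing filterByExpr were kept (14808 of 25611, all 9 members among them), and p-values were adjusted by Benjamini-Hochberg over all of them, with 0.05 as the threshold. TMM factors were 0.765 to 0.842 in the 4 h Jurkat libraries and 1.03 to 1.07 in the others. SEs are the fitted log2 fold change divided by the root of its F statistic. CPM use TMM-scaled library sizes, and CPM per kb use exon lengths from GENCODE M21. Log2 CPM for correlations used a prior count of 2. Alternatives were DESeq2 1.42.0, other scalings and filters, a replicate block, fits of the compared groups alone and leaving out each library.

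The members and lists were chosen with earlier results of these data known. Calls of the members between genotypes were planned but are not given, since the members were chosen on that contrast, and their median is given in their place. Genes named were the members, the other tested genes of the interval, the nearest tested gene on each side, the most correlated genes and up to 2 genes of a list by smallest p. Promoter windows came from RefSeq. The values of 1 gene that this rule names are not reported here.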

Additional observations from a re-analysis of the deposited data

Results flagged for a closer look

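Ifi208 after Jurkat cells for 30 min drew attention because the libraries of the genotypes lay on different sides of their untreated means: in log2 CPM every knockout library lay above the mean of the untreated knockout (1.19 on average), and every wild-type library lay below the mean of the untreated wild type (-0.25 on average). The change in the wild type did not pass (log2 fold change -0.26, SE 0.25, edgeR adjusted p = 0.49). The rise in the knockout lost its call without knockout Jurkat 30 min replicate 1 (0.63, SE 0.43, edgeR adjusted p = 0.39). Single libraries of the treated and untreated groups overlapped in both genotypes. The difference, knockout minus wild type, was 1.65 on the log2 scale (SE 0.50), and 0.89 (SE 0.47) without that library. This difference was not tested, because Ifi208 was chosen for its difference between genotypes.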

How the results depend on the processing

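The counts of the 9 genes called (7 for the interactions) were recomputed under each alternative. Scaling with DESeq2 size factors and testing every gene with at least 1 count moved none of the 12 counts by more than 1.5 times. A filter of at least 5 CPM in 3 libraries, the replicate block and DESeq2 each gave 1 gene called after OVA for 30 min in the wild type, against 0. Fitting only the groups compared gave 3 for Jurkat 30 min in the wild type (against 1), 0 for Jurkat 30 min in the knockout (against 4) and 2 for the Jurkat 4 h interaction (against 0). Scaling to total counts also gave 2 for that interaction. The causes were not tested. Leaving out 1 library at a time, the wild-type responses gave 0 to 1 for OVA 30 min, 1 for Jurkat 30 min, 7 to 8 for OVA 4 h and 9 for Jurkat 4 h, and the knockout responses 0, 1 to 6, 5 to 6 and 9. The Jurkat 30 min interaction gave 0 to 2 and the other 3 gave 0. The single count of 1 for OVA 30 min came without wild-type untreated replicate 1. Of the 72 responses of single genes, refitted under 7 settings (504 fits), 255 of 259 fits of called responses kept the call and 4 lost it, and 10 fits of responses not called newly passed. With a library left out (432 fits), 207 of 222 kept the call, 15 lost it and 5 newly passed. None reversed.

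The median log2 fold change of the 9 genes for knockout against wild type, given with no test, moved by less than the spread between libraries under every setting that kept all libraries of the comparison. With a library left out it ran from -0.76 to -0.65 in untreated cells, -0.80 to -0.69 after OVA 30 min, -0.47 to -0.14 after Jurkat 30 min, -0.88 to -0.81 after OVA 4 h and -0.44 to -0.28 after Jurkat 4 h.

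Replicate numbers were not treated as pairs. Of 39 pairs of same-numbered libraries, 4 had deviations correlated above 0.1 (range -0.118 to 0.151), and in 0 of 13 comparisons did every pair exceed it. In wild-type OVA 30 min against untreated, replicate 1 (0.151) and replicate 3 (0.111) exceeded it. With 3 libraries in a group this check cannot exclude a pairing. With the replicate block, the count for OVA 4 h in the knockout was 7, against 6.

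At this depth Ifi208 and Ifi213 rested on 1 to 42 counts per library in knockout cells that were untreated or given OVA for 30 min, so their fold changes there are the least precise of the 9 genes.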
